A study of Rattus norvegicus with 49 samples.

Results

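Fcgr2b, Fcer1g, Tyrobp and Pira2 encode an inhibitory receptor for immunoglobulin G, 2 signalling adaptor chains and an activating receptor of myeloid cells. They are 4 of the 10411 genes that the array could name, and were taken by gene symbol or synonym over all arrays. They account for 5 of the 12783 probe sets with a single gene symbol: 1371079_at for Fcgr2b, 1373575_at for Fcer1g, 1374730_at for Tyrobp, and 1387992_at and 1370682_at for Pira2. The 4 genes were selected on measured values, the higher signals of 23-month against 3-month animals, so every difference that involves the 3-month or 23-month animals is given here as a description, without a test. The tests below use the ages of 6, 9 and 12 months, the spread among animals of 1 age, and genes other than these 4.

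Tissue came from the CA1 field of the left hippocampus of Fisher 344 rats, an inbred strain, with 1 Affymetrix RAE 230A array per animal and 49 arrays in all. The groups were animals of 3, 6, 9 and 12 months (9 animals each) and of 23 months (13 animals), each array from a different rat, so that p-values reflect the spread between rats. The study's design text gives the oldest age as 25 months in one place, and states that 2 aged rats were withdrawn because of ill health, so the oldest group is limited to the healthier animals of its age. All animals, the youngest included, had learned a water maze in the days before tissue was taken. Values are MAS5 signals, a brightness on a linear scale that the authors scaled to a common target on every array, and signals of different probe sets are not compared with each other.

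Immune receptors of this kind work in opposing pairs. FcR gamma, the product of Fcer1g, and DAP12, the product of Tyrobp, are short membrane chains that bind no ligand themselves; each carries an immunoreceptor tyrosine-based activation motif (ITAM) and signals for partner receptors through the kinase Syk. Fc gamma receptor IIB, the product of Fcgr2b, binds immune complexes and carries an inhibitory motif (ITIM) that recruits the phosphatase SHIP1. Paired immunoglobulin-like receptors of the A type, among them the product of Pira2, signal through FcR gamma and have an inhibitory counterpart, PIR-B. In the brain these genes are known mainly from microglia, the resident macrophages, and the transcription factor PU.1 is known to drive many genes of that lineage.

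Promoter sequence was searched for the core letters that PU.1 is known to bind. A RefSeq promoter window, from 250 bases before to 50 bases after a start site, was found for 1 of the 4 genes, Pira2. The gene table of the same assembly gives Pira2 a longer extent that begins before this window, so the window marks the start that the promoter table uses and not the outer end of the gene. It is shown 5′ to 3′ from assembly GRCr8, chr1:74331052-74331351, + strand, with the PU.1 core GAGGAA in capitals.
Pira2 promoter: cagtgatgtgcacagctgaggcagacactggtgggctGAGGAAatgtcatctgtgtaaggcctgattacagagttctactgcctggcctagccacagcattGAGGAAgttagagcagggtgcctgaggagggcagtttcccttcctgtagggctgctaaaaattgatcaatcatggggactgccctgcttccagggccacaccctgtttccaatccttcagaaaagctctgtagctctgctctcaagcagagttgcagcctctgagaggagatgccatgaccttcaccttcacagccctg
The core occurred 2 times in this window, at positions 38 to 43 and 102 to 107 counted from the window's first base, both on the + strand, and 0 times on the other strand. Of 33469 promoter windows of the same length, 9239 (27.6%) held GAGGAA at least 1 time on either strand and 1615 (4.83%) held it at least 2 times. Among the 12 microglial marker genes with a window, 9 (75.0%) held it. A match describes the letters only and is not a binding site.

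Markers of the labelled tissue were present. All 6 measured markers of CA1 pyramidal neurons and all 5 measured markers of neurons passed the filter (100 or more in signal, 5 arrays or more), and so did 14 of 16 measured microglial markers. Prox1, which marks granule cells of the neighbouring dentate gyrus, also reached 100 on all 49 arrays, with signals from 274 to 1073. None of the 3 measured markers of perivascular macrophages reached 100 on any array, and 1 of 8 measured markers of neutrophils and monocytes passed the filter (Vcan, which other brain cells also express). Median signals of the 49 arrays lay between 208.6 and 225.3. A group of 5 arrays, 4 from 3 months and 1 from 23 months, had a transthyretin (Ttr) signal above 2000; transthyretin is abundant in the neighbouring choroid plexus. For the 4 genes the differences between 23 and 3 months are therefore also given without these arrays. One further array, 23 months replicate 8, had a haemoglobin beta (Hbb) signal of 4388 where the next highest was 659; without it the differences were 1.30 for Fcgr2b, 0.77 for Fcer1g, 0.45 for Tyrobp and 1.39 for Pira2.

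Fcgr2b encodes the inhibitory Fc receptor for immunoglobulin G. At 3 months its signal ran from 67.1 through a median of 101 to 111. At 6 months the lowest, median and highest animals stood at 95, 107 and 134, at 9 months at 117, 132 and 166, and at 12 months at 103, 137 and 176. At 23 months they stood at 152, 216 and 329. Each median was thus above that of the next younger age, and the ranges of neighbouring ages overlapped. No overlap was left between 3 and 9 months, between 3 and 23 months, or between 6 and 23 months. The share of all tested genes without overlap is given below for 3 and 23 months and was not counted for other ages. The means were 92.8 ± 16.1, 113 ± 14.3, 134 ± 16.7, 142 ± 22.1 and 229.5 ± 49.0 (SD, n = 9, 9, 9, 9 and 13).

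On the log2 scale Fcgr2b was 1.30 ± 0.11 (SE) higher at 23 than at 3 months, or 2.46-fold, and 1.38 higher without the 5 arrays of high transthyretin signal. Part of that difference was already there in middle age: the 12-month animals were 0.62 ± 0.12 above the 3-month animals, and the 23-month animals 0.68 ± 0.11 above the 12-month animals. A signal of 100 was reached by 5 of 9 animals at 3 months, by 7 of 9 at 6 months and by every older animal. In bulk tissue more cells of a type and more RNA per cell cannot be told apart, here and in every result below.

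Fcer1g encodes FcR gamma, the chain that activating Fc receptors and PIR-A receptors need. Its signals at 3 months were 683, 766 and 819 in the lowest, median and highest animal. They were 710.2, 873 and 989 at 6 months, 850.2, 896 and 941 at 9 months, and 911, 1028 and 1174 at 12 months. At 23 months they were 981, 1259 and 1814. Every animal of 9, 12 and 23 months lay above every animal of 3 months, and every 23-month animal lay above every 9-month animal, while 12 and 23 months overlapped. Here too the share of all tested genes was counted for 3 and 23 months only. The mean was 759 ± 45.9 at 3 months and 1307 ± 244 at 23 months (SD, n = 9 and 13), so the SD was also several times wider in the oldest group. The log2 difference of 23 against 3 months was 0.76 ± 0.07 (SE), or 1.70-fold, and 0.78 without the arrays of high transthyretin signal. By 12 months it was 0.43 ± 0.08, and the remaining step from 12 to 23 months was 0.33 ± 0.07.

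Tyrobp encodes DAP12, the adaptor of TREM2 and of many natural killer and myeloid receptors. Its signals at 3 months were 157, 197.5 and 254 in the lowest, median and highest animal, and at 6 months 172, 189 and 301. They were 170.2, 218 and 265.5 at 9 months and 206, 234.5 and 273 at 12 months. At 23 months they were 185, 288 and 346. Between the youngest and the oldest animals Tyrobp overlapped, which Fcgr2b, Fcer1g and the brighter Pira2 probe set did not, although 11 of 13 old animals lay above all 9 young ones and 12 of 13 above their mean. The log2 difference of 23 against 3 months was 0.47 ± 0.10 (SE), or 1.39-fold, and 0.55 without the arrays of high transthyretin signal. Between 3 and 6 months it was 0.02 ± 0.11.

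Pira2, the activating receptor of the PIR family, was measured by 2 probe sets that did not behave alike. With 1387992_at the lowest, median and highest signals were 11.0, 41.4 and 64.1 at 3 months, and 43.1, 58.4 and 72.3 at 6 months. They were 41.7, 60.4 and 75.6 at 9 months, 10.1, 68.1 and 106 at 12 months, and 71.8, 99.8 and 135 at 23 months. All 13 old animals lay above all 9 young ones, and the medians of 6, 9 and 12 months lay between, with ranges that overlapped both. The probe set reached a signal of 100 on 7 arrays, 1 at 12 months and 6 at 23 months, so it passed that filter through its high ages alone.

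The second Pira2 probe set, 1370682_at, never reached 100. Its means were 56.4 ± 9.54 at 3 months and 63.3 ± 18.1 at 23 months (SD, n = 9 and 13), and the old animals, from 26.8 to 94.5, spanned the whole range of the young. The log2 difference of 23 against 3 months was 1.37 ± 0.22 (SE) for 1387992_at and 0.12 ± 0.14 for 1370682_at, with a 95% interval of -0.16 to 0.41 for the latter. For 1387992_at the size depended on how dim signals were handled, and was 0.61 with signals under 64 set to 64 and 1.45 without the arrays of high transthyretin signal. RefSeq lists Pirb and Lilrb3 among the synonyms of this gene, so the probe sets may not separate PIR-A from its inhibitory relative. Lilrb2, a related receptor gene on the array, was too dim to be tested, and its log2 difference was 0.75 ± 0.21.

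Over the 4 genes, 3 (Pira2 by 1 of its 2 probe sets) had every 23-month animal above every 3-month animal, where 0.371% of the 8093 tested genes had this and 0.0247% had every old animal below; the choice of the genes used this contrast. The share of all tested genes called at 23 against 3 months in either direction was 3.26%.

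**Figure D1:**
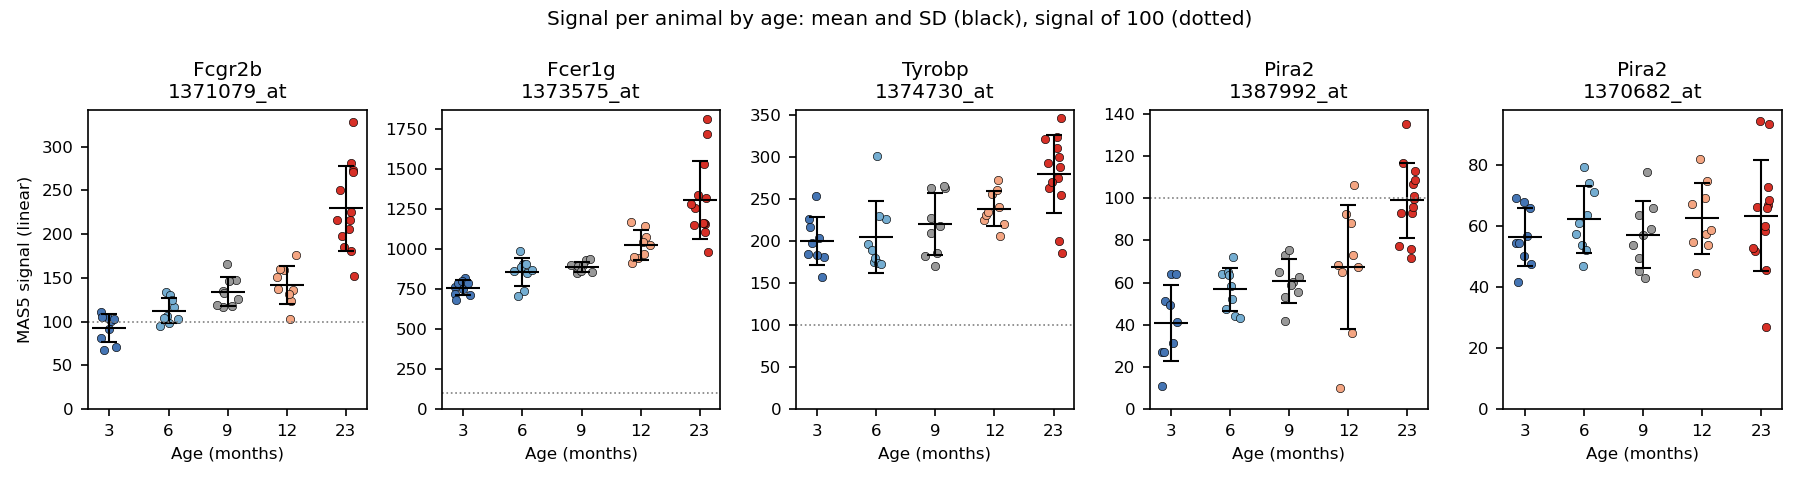
MAS5 signal (linear, vertical axis from 0) of the 5 probe sets against age in months, 1 point per animal, with the mean and SD in black and a dotted line at a signal of 100. Fcgr2b, Fcer1g and Pira2 1387992_at separate 3 from 23 months with no overlap, Tyrobp overlaps, and Pira2 1370682_at stays between 26.8 and 94.5 at 23 months.

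The question for the middle ages was whether the 4 genes differed between ages outside the contrast of 23 and 3 months on which they were selected, although results of all ages were known when they were chosen. Pira2 was in the fit only through its high ages and is left out of the counts here. In a limma fit of all 8093 tested genes with Benjamini-Hochberg adjustment, 0 of Fcgr2b, Fcer1g and Tyrobp passed at 12 against 6 months. Of all genes 0.0124% passed there (1 gene, which was lower at 12 months). At 9 against 6 and at 12 against 9 months 0 of Fcgr2b, Fcer1g and Tyrobp and 0% of all genes passed. Genes at an unadjusted p under 0.05 numbered 232, 186 and 337 in these comparisons in the order given, and a plain two-sample test on the same values called 0 genes in each, with 218, 209 and 397 at an unadjusted p under 0.05.

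The 95% intervals of Fcer1g, Fcgr2b and Tyrobp at 12 against 6 months lay above 0, which equals an unadjusted limma p under 0.05. At that level 126 of the 8093 tested genes were higher at 12 months. The genes described here were chosen with results of all ages known. Fcer1g was 0.26 ± 0.08 (SE) higher at 12 months, with an interval of 0.11 to 0.41 and 9 of 9 animals of 12 months above the 6-month mean (limma p = 0.00115, adjusted p = 0.999). It had the fifth smallest p of the 8093 genes. Fcgr2b was 0.33 ± 0.12 higher, with an interval of 0.09 to 0.56 and 8 of 9 animals above that mean (limma p = 0.00717, adjusted p = 0.999). Tyrobp was 0.24 ± 0.11 higher, with 9 of 9 animals above it and an interval of 0.02 to 0.45 (limma p = 0.0299, adjusted p = 0.999). Pira2 was in the fit only through its signals at 12 and 23 months, so its values are a description: it was 0.12 ± 0.24 higher, with 7 of 9 animals above it and an interval of -0.36 to 0.59. That difference was 0.36 without 12 months replicate 5, whose Pira2 signal was 10.1, and it ran down to 0.015 when another array was left out, the lowest being without 12 months replicate 1.

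When the middle ages were taken in steps, the point estimates of Fcgr2b and Fcer1g were larger in different steps. Fcgr2b was 0.25 ± 0.12 (SE) higher at 9 than at 6 months (limma p = 0.0364, adjusted p = 1.00) and 0.08 ± 0.12 higher at 12 than at 9 months. Fcer1g was 0.06 ± 0.08 higher in the first step and 0.20 ± 0.08 higher in the second (limma p = 0.0096, adjusted p = 0.996). Tyrobp was 0.11 ± 0.11 and 0.13 ± 0.11 higher. Pira2 was 0.10 ± 0.24 and 0.02 ± 0.24 higher, as a description. The smaller steps were the less certain ones: with 1 array left out in turn, the first step of Fcer1g ran from 0.02 to 0.08 and the second of Fcgr2b from 0.04 to 0.13. Whether the steps differ between the genes was not tested.

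**Figure D2:**
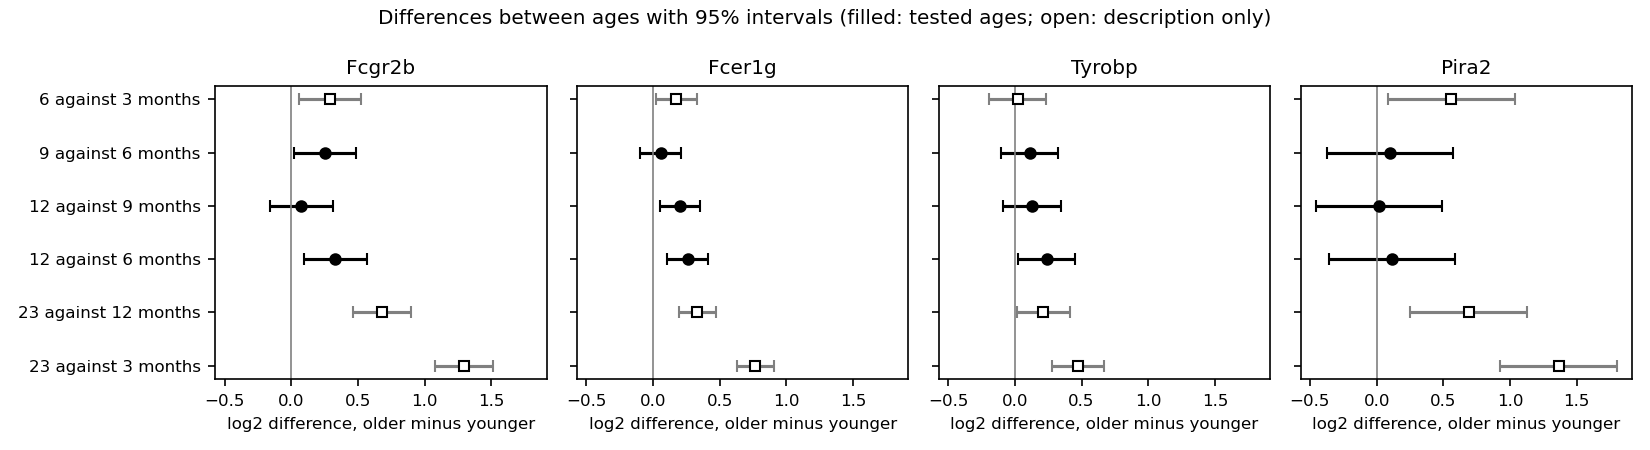
Log2 difference of the older minus the younger age (horizontal axis) with 95% intervals for 6 comparisons (rows) in each of the 4 genes. Filled points are the tested middle ages and open squares are descriptions. At 12 against 6 months the intervals of Fcer1g, Fcgr2b and Tyrobp lie above 0, and that of Pira2 runs from -0.36 to 0.59. The values of Pira2 are a description in every row.

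A further comparison asked whether animals of 1 age that were high in one of the genes were also high in another. Deviations from the mean of each age were correlated over the 49 animals for the 6 pairs of genes, with permutation p-values adjusted over the 6 pairs. No pair passed in this comparison, which has no term for the replicate number. The pairs with Pira2 entered the adjustment, but are given below as a description, because Pira2 passed the filter through its high ages alone. Fcgr2b and Fcer1g had the highest Pearson r, 0.33 (permutation p = 0.0477, adjusted p = 0.216), with a Spearman rho of 0.12 (permutation p = 0.441, adjusted p = 0.661). Without the 2 animals farthest from the median in Fcgr2b, 23 months replicates 7 and 9, r was 0.08, so the relation rests on those animals. These same animals were the lowest and the highest of 13 in all of Fcgr2b, Fcer1g and Tyrobp; in Pira2 their ranks from the top were 3 and 4.

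The 2 ITAM chains, Fcer1g and Tyrobp, had an r of 0.26 and a rho of 0.16 (permutation p = 0.108 and 0.28, adjusted p = 0.216 and 0.559), and an r of 0.24 without the 2 farthest animals. Fcer1g and its partner receptor gene Pira2 had an r of 0.21 and a rho of 0.30, and an r of 0.24 without the 2 farthest. Fcgr2b and Tyrobp had an r of 0.15 and a rho of 0.04 (permutation p = 0.327 and 0.771, adjusted p = 0.392 and 0.771), and an r of -0.06 without the 2 farthest. Fcgr2b and Pira2 had an r of 0.05 and a rho of -0.05, and an r of 0.06 without them. Tyrobp and Pira2 ran the other way in their point estimate, with an r of -0.17 and a rho of -0.25, and an r of -0.18 without the 2 farthest. By the other Pira2 probe set the r with Fcgr2b and the r with Tyrobp each had the opposite sign. Across all other tested genes the 95th percentile of r with one of the 4 genes lay between 0.27 and 0.34.

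Age by age, no correlation passed adjustment. Among the 13 animals of 23 months r was 0.63 for Fcgr2b with Fcer1g and 0.64 for Fcgr2b with Tyrobp (permutation p = 0.0218 and 0.0192, both 0.327 after adjustment over 30 correlations, 6 pairs in 5 ages). At the 4 younger ages r ran from -0.05 to 0.10 for the former pair and from -0.52 to 0.38 for the latter. With no 23-month animals r was 0.00 and -0.16 over the remaining ages. Fcer1g with Pira2, a description only, went the other way, with an r of 0.01 at 23 months against 0.53 and 0.52 at 6 and 12 months. Replicates 7 and 9, on which the relation of Fcgr2b with Fcer1g rests, are both from the 23-month group, and the difference in r between ages was not tested.

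**Figure D3:**
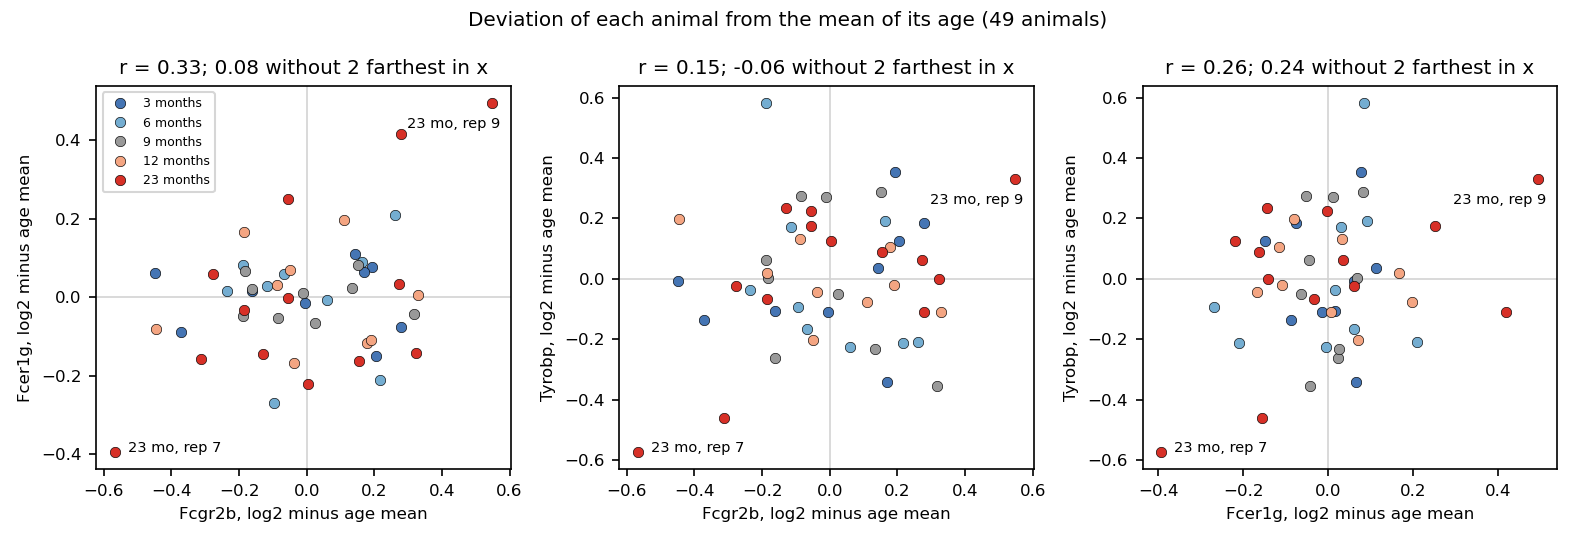
Deviation of each of 49 animals from the mean of its age in log2 signal, for Fcgr2b against Fcer1g, Fcgr2b against Tyrobp and Fcer1g against Tyrobp, coloured by age. The animals 23 months replicate 7 (low) and replicate 9 (high) lie at the ends of the clouds, and without the 2 animals farthest in the horizontal direction r is 0.08, -0.06 and 0.24.

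Since the 4 genes are myeloid, each was set beside the mean log2 signal of 14 microglial marker genes on the same arrays. That level was 8.39 at 3 months (range 8.32 to 8.48) and 8.83 at 23 months (range 8.58 to 9.31), and its difference of 12 against 6 months was 0.06 (exact two-sided permutation p = 0.176). The correlations with this level, like those of the pairs, have no term for the replicate number. Within ages Fcer1g followed the level, with an r of 0.65 and a rho of 0.59 over 49 animals (permutation p = 0.00014 and 0.00012, adjusted over 4 genes p = 0.00056 and 0.00048), and an r of 0.44 without 23 months replicates 7 and 9. Fcgr2b had an r of 0.40 and a rho of 0.21 (permutation p = 0.0146 and 0.174, adjusted p = 0.0293 and 0.232), and an r of 0.14 without those animals, so its relation rests on them. Tyrobp had an r of 0.22 and a rho of 0.12 (permutation p = 0.167 and 0.42, adjusted p = 0.222 and 0.42), and an r of -0.03 without those animals. Pira2, as a description, had an r of 0.16 and a rho of 0.21, and an r of 0.20 without those animals.

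With the microglial level subtracted, the differences of 23 against 3 months were 0.86 for Fcgr2b, 0.33 for Fcer1g, 0.04 for Tyrobp and 0.93 for Pira2, as a description. The microglial level itself was 0.43 higher at 23 than at 3 months, so the difference of Tyrobp was close to it, and those of Fcgr2b, Fcer1g and Pira2 were larger. For Pira2 this depends on the floor and on the probe set. Its own difference was 0.61 with signals under 64 set to 64, and 0.12 by the second probe set, 1370682_at, which is smaller than that level. The same quantity at 12 against 6 months was 0.26 for Fcgr2b, 0.19 for Fcer1g, 0.17 for Tyrobp and 0.05 for Pira2 (exact two-sided permutation p = 0.013, 0.0018 and 0.106 for the first 3 genes, among 4 comparisons of 9 against 9 animals). The value of Pira2 is a description, since it passed the filter through its signals at 12 and 23 months alone. In a limma fit of every tested gene minus the microglial level, 0 of the first 3 genes passed (adjusted p = 0.927 for each), where 0.0124% of all genes did.

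The rest of the pathway was described from 9 lists by role, with 156 genes, of which 84 had a probe set and 54 were tested. At 23 against 3 months 6 of the 54 rose and 0 fell, where 2.41% of all 8093 genes were called higher and 0.853% lower. Of these 6, Lgals3 had a mean above the filter's signal at 23 months only, so its call is a description. The median log2 difference of the 54 genes was 0.06 against 0.00 for all tested genes. At 12 against 6 months limma called 0 of the 54, with 3 at an unadjusted p under 0.05, and the plain two-sample test also called 0; the median was 0.01 against 0. A fold below carries the adjusted p of the limma fit over all genes, except that of Lgals3.

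Among receptors, Fcgr3a, an activating Fc receptor that needs FcR gamma, had a log2 difference of 0.31 ± 0.12 (SE, adjusted p = 0.152), with means of 164 ± 24.2 at 3 and 209 ± 68.8 at 23 months (SD, n = 9 and 13). Fcgrt, the neonatal Fc receptor that transports and recycles immunoglobulin G and carries no ITAM chain, stood at 0.08 ± 0.09 (adjusted p = 0.77). Of 4 tested receptors that work with FcR gamma or DAP12, 1 rose: Csf1r, the receptor for macrophage colony-stimulating factor, from 635 ± 71.6 to 829.6 ± 87.1, or 1.31-fold (adjusted p = 4.61e-05). The others were Itgam, an integrin chain of the complement receptor, at -0.01 ± 0.23, Plxna1, a semaphorin receptor, at -0.12 ± 0.14, and Klrk1, a natural killer receptor, at 0.11 ± 0.22 (adjusted p = 0.99, 0.774 and 0.882). The 2 tested ITAM chains of T cells, Cd3e and Cd247, stood at -0.10 ± 0.13 and -0.11 ± 0.23 (adjusted p = 0.8 and 0.896).

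Inside the cell, 0 of 7 tested kinases passed. Syk, which docks on phosphorylated ITAMs, stood at 0.13 ± 0.18 (SE) and Lyn, which phosphorylates them, at 0.20 ± 0.13 (adjusted p = 0.814 and 0.51). Csk, which restrains Src family kinases, stood at 0.14 ± 0.08 and Fyn, a Src family kinase, at -0.12 ± 0.06 (adjusted p = 0.485 and 0.372). Of 7 phosphatases and ubiquitin ligases 1 rose, Ptpn11, which encodes SHP2, from 3639 ± 236 to 4472 ± 401, or 1.23-fold (adjusted p = 1.60e-05). Inpp5d, which encodes the SHIP1 that Fc gamma receptor IIB recruits, stood at 0.09 ± 0.10 (adjusted p = 0.759). Of 14 downstream adaptors and enzymes 2 rose: Rac2, a small GTPase of blood cells that drives the phagocyte oxidase, by 1.41-fold, and Rasgrp3, an exchange factor for Ras, by 1.37-fold (adjusted p = 0.00442 and 0.0053). Without the 5 arrays of high transthyretin signal the Rasgrp3 call was lost, and the other 5 pathway genes that rose were still called.

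On the inhibitory side, 0 of 4 tested receptors passed. Pecam1, an ITIM receptor that endothelium also carries, stood at 0.39 ± 0.16 (SE) and Cd300a, an inhibitory receptor of myeloid cells, at 0.29 ± 0.14 (adjusted p = 0.207 and 0.33). Of 6 tested transcription factors of the lineage 0 passed, and Irf8, which microglia need, stood at 0.37 ± 0.13 (adjusted p = 0.104); Spi1, the gene of PU.1, had no probe set here. Among 8 tested ligands 2 rose. Lgals3, a galectin that binds TREM2, was 2.49-fold higher, from a 3-month mean of 46.3 to 107 at 23 months. Its means at 6, 9 and 12 months were 66.8, 56.7 and 54.7, so only its 23-month mean was above the filter's signal. It may thus have been tested through its high age alone, and its fold and its call are a description. Apoe, a lipoprotein that binds TREM2, was 1.15-fold higher (adjusted p = 0.0334), but the call was lost in 10 of 49 runs that left out 1 array and in 6 of 12 other settings. Clu, another TREM2 ligand, stood at 0.15 ± 0.05 (adjusted p = 0.079). Of the 14 tested microglial markers, 10 rose and 0 fell; Csf1r, Itgam and Irf8 stand in both the pathway and the marker lists.

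**Figure D4:**
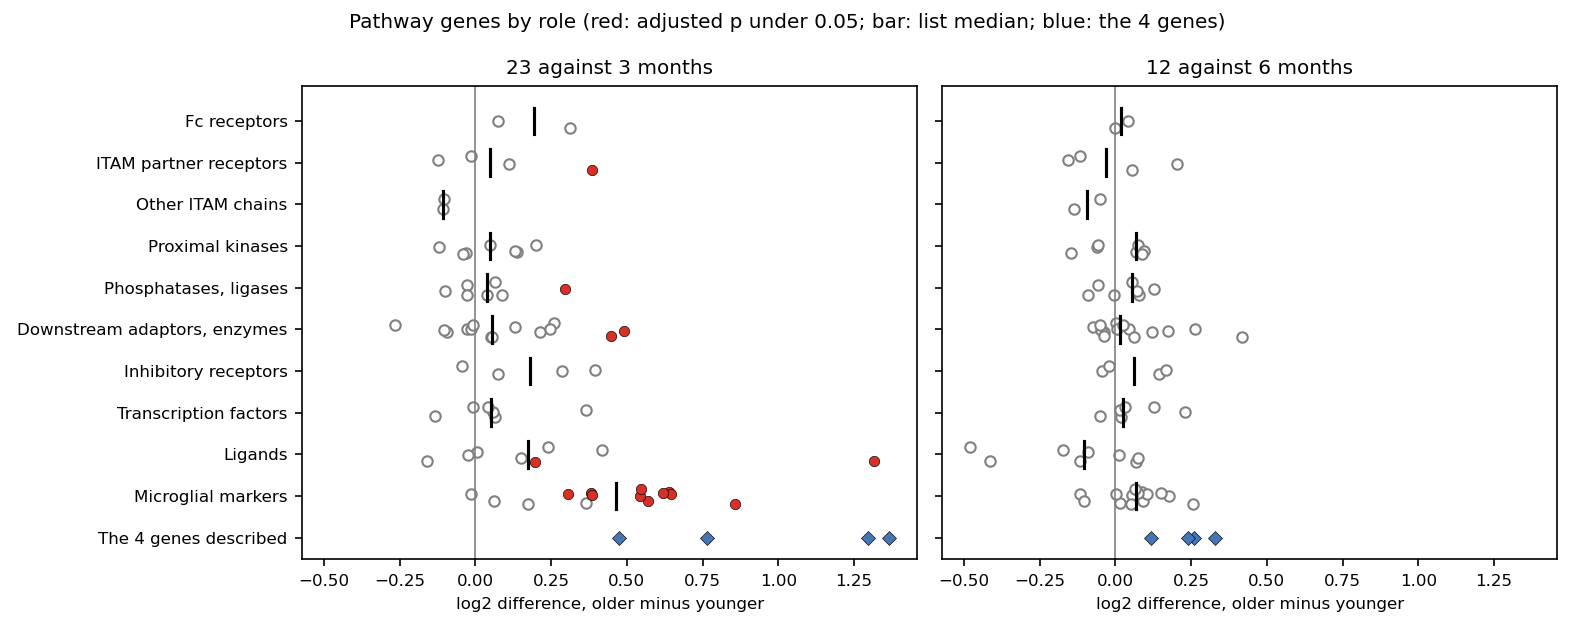
Log2 difference of the older minus the younger age (horizontal axis) for the tested pathway genes by role, 1 point per gene, at 23 against 3 months and at 12 against 6 months, with red points at an adjusted p under 0.05, a bar at each list's median, and the 4 genes described here in blue. At 23 against 3 months 6 of 54 pathway genes and 10 of 14 microglial markers are red, and at 12 against 6 months 0 are. The call of Lgals3, among the 6, is a description.

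Markers of other cells that use Fc receptors were set beside these values. The summed signal of 8 neutrophil and monocyte markers ran from 350 to 461 at 3 months and from 348 to 804 at 23 months, and that of 10 T and natural killer cell markers from 415 to 641 and from 434 to 908. The summed signal of 6 mast cell markers ran from 399.7 to 587 and from 384 to 510.0, and that of 3 perivascular macrophage markers from 68.1 to 146 and from 78.9 to 151. Most of the mast cell sum, with means of 492 and 440 at 3 and 23 months, was Kit, with means of 345 and 287. In the T and natural killer cell sum, with means of 532 and 600, Lck had means of 173 and 172. Nkg7 and Gzmb of that list each reached 100 on 1 array, with highest signals of 184.5 and 178.4. The neutrophil and monocyte sum had means of 394 at 3 and 467 at 23 months. Of the tested markers in these lists (Vcan, Cd4, Cd3e, Lck and Kit) 0 passed at 23 against 3 months, with log2 differences from -0.27 for Kit to 0.51 for Cd4 (limma adjusted p from 0.0824 to 0.935). S100a8, S100a9 and Ccr2, which define blood neutrophils and monocytes, had highest signals of 50.2, 62.5 and 44.4 over the 49 arrays. Of the 8 measured markers of that list 5 never reached 100, but Plac8, Vcan and Mmp9 had highest signals of 413, 297 and 119. The part of these cells in the results above was not tested.

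The genes most like each of the 4 were found by Pearson's r of log2 signals over the 49 arrays, which share the age difference. For Fcgr2b they were Rnaset2, a lysosomal ribonuclease (r = 0.85), Npc2, a lysosomal cholesterol carrier (0.83), and C3, the central complement component (0.83). For Fcer1g they were C3 (0.91), Npc2 (0.89) and Rnaset2 (0.86). The inhibitory receptor and the activating chain thus had the same 3 nearest genes in another order. Pira2 shared 2 of these, Npc2 (0.69) and C3 (0.68), followed by Aadat, an aminotransferase (0.67). For Tyrobp they were RT1-Da, a chain of the class II antigen-presenting complex (0.68), Anxa3, an annexin (0.66), and Mpeg1, the pore protein of macrophages (0.66).

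With the mean of each age subtracted, the lists changed. Fcer1g kept correlations of 0.56 with C3, 0.48 with Npc2 and 0.47 with Rnaset2, but its nearest genes were Man2c1, a mannosidase (0.65), Letmd1 (0.61) and Cd74, the invariant chain of class II (0.61). Fcgr2b kept 0.43 with Rnaset2, 0.12 with Npc2 and 0.17 with C3, and its nearest genes were Mrpl46, of the mitochondrial ribosome (0.53), LOC100912041 (0.52) and Etfrf1 (0.51). Those of Tyrobp were Samsn1, an adaptor of blood cells (0.60), Slc25a45 (0.57) and Pdlim1 (0.57). Those of Pira2 were St3gal5, a ganglioside synthase (0.66), Dolpp1 (0.60) and Slc46a1, a folate transporter (0.57). They are the highest of all tested genes and describe these arrays only.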

How the data were processed

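The deposited intensity of each probe set is linear; the authors computed it with MAS5 and scaled it to a target of 500, per the series' design text. The MAS5 version and the array batches are not given in the sources used here. Control probe sets were left out. Symbols came from the platform annotation and were updated by Entrez ID to RefSeq GRCr8, used for names only, for 12748 of 12783 probe sets. Each gene was represented by its probe set of highest mean log2 signal. Of 10411 genes, 8093 with a signal of at least 100 on at least 5 arrays were tested. Signals under 16 were set to 16 (0.047% of values) and log2 transformed. limma 3.58.1 in R 4.3.3 fitted a mean per age with a variance trend over 49 arrays, with Benjamini-Hochberg adjustment over all tested genes and a threshold of 0.05. The fit was tested on simulated data.

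Correlations used 100000 permutations, or exact ones within groups of 9, two-sided. The members and the lists were chosen with earlier results of these data known, so counts for them are not independent evidence. Named genes were all probe sets of the 4 genes, all tested Fc and partner receptors, up to 4 genes of smallest p at 23 against 3 months of each other role list (up to 2 of a marker list), and the 3 nearest genes by r. Lilrb2, Spi1, Lck, Nkg7, Gzmb, S100a8, S100a9, Ccr2, Plac8 and Mmp9 were named outside that rule, after their values were seen. An adjustment over the 4 genes planned for the microglial comparison was replaced by one over all genes. Alternatives were another floor, filter, normalization or probe set, array weights, no variance trend, the compared ages alone, a plain two-sample test, single arrays left out and a replicate block. One probe set with several symbols, Pira2 among them, was left out. The precision is limited by the number of arrays per age.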

Additional observations from a re-analysis of the deposited data

Results flagged for a closer look

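For Tyrobp the animal 6 months replicate 3 stood apart from its group, with a signal of 301.3 where the other 8 animals lay between 172.3 and 230.1. The gap was 0.552 of the group's range, above Dixon's critical value of 0.493. It was 1 of 20 groups checked, a number in which chance gives about 1 such animal. The groups of 23 months, with 13 animals each, were not checked. Without it, Tyrobp was 0.31 higher on the log2 scale at 12 than at 6 months, against 0.24 with it, and limma's adjusted p was 1 and 0.999.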

How the results depend on the processing

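By the probe sets used, each of the 4 genes kept its direction and stayed uncalled at 12 against 6 and 9 against 6 months in every other setting that gave it a value and in all 49 runs that left out 1 array. For Pira2 this is a description, and its other probe set went the other way at 9 against 6 months (-0.12 ± 0.15, SE). The correlations with the microglial level were not checked in this way. Over the 33 results that were, 293 of 303 values under other settings and 1477 of 1493 with 1 array left out were labelled unchanged. For a gene's difference at the middle ages this took the same sign and the same call. At 23 against 3 months it took the same sign and a shift smaller than the SD between animals, and for a count a similar size. The exceptions follow, and their cause was not tested. Pira2 at 12 against 9 months was -0.026 under quantile normalization and ran from -0.084 to 0.26 with 1 array left out. Its difference at 23 against 3 months moved from 1.37 to 0.61 with signals under 64 set to 64. Minus the microglial level, Pira2 at 12 against 6 months ran from -0.043 to 0.28 with 1 array left out. Its r with Fcgr2b was -0.039 at that floor, -0.17 with the other Pira2 probe set, and -0.025 to 0.090 with 1 array left out. Its r with Tyrobp was 0.13 with the other probe set, a setting chosen after seeing the data. Fcgr2b with Tyrobp had an r of -0.16 without the 23-month arrays. Pathway genes called lower at 23 against 3 months were 2 with every probe set tested (Prkcb and Rasgrp1), and 0 to 1 with 1 array left out; Rasgrp1 was called without 3 months replicate 8, 12 months replicate 4 or 23 months replicate 8. With a filter of 25 arrays the Lgals3 call was lost and Pira2 was not tested.

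With the replicate number as a block, 0 of Fcgr2b, Fcer1g and Tyrobp passed at any middle-age comparison. The replicate block gave an r of 0.51 for Fcgr2b with Fcer1g, 0.43 for Fcer1g with Tyrobp and -0.037 for Fcer1g with Pira2. No p-value is given for these, because the permutations shuffled animals within ages without regard to the block. The labels give the numbers no shared litter, batch or day. Of 86 same-numbered pairs of arrays of different ages, 33 (38.4%) had deviations correlated above 0.1, against 13.0% of the other pairs, with medians of 0.055 and -0.01, so same-numbered arrays were alike more often but not in every pair. A further limit is that 5 animals of 23 months have a number no other age shares, so the block leaves them a deviation of 0 in every gene. Dim signals limit Pira2, which reached 100 on 7 arrays.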
